A study of Homo sapiens with 24 samples.

Results

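Transcription in HEK293 cells, a line derived from human embryonic kidney, was compared between cells transfected with EVI1-AQA and cells transfected with empty vector, both exposed to H2O2. These 2 groups took up 6 of the 24 samples of the series and held 3 samples each, chosen by their labelled plasmid and treatment. EVI1-AQA cells carried a flag-tagged EVI1 in which both serines of the carboxy-terminal SQS motif were replaced by alanine, so that the motif cannot be phosphorylated, expressed from a plasmid with a CMV promoter. Empty vector cells carried the plasmid without EVI1. Both groups received 150 μM H2O2 for 8 h, which damages DNA, and the comparison asks which transcripts differ once the non-phosphorylatable protein is present during that damage. The rest of the series was untransfected cells and cells with wild type EVI1 (EVI1-WT), and all 4 kinds of cell were also left untreated for the same 8 h. Each of 3 batches held 1 sample of each of the 8 groups. Transfection was transient, and no label says that the samples of a group came from separate cultures, so the p-values here measure only the spread between these samples.

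EVI1 is a zinc finger protein that binds DNA and recruits CtBP, histone deacetylases and other co-repressors. It is essential for blood stem cells and is an oncogene in myeloid leukaemia. Its amino-terminal zinc fingers recognise a GATA-like sequence and its carboxy-terminal fingers an ETS-like one, and the SQS motif is a site for the kinase ATM, which is activated by DNA damage. H2O2 is removed in cells by peroxiredoxins and glutathione-dependent enzymes.

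Expression was measured by 3′ mRNA sequencing and deposited as log2 values in which every transcript averages 0 over the 8 samples of a batch. A value of 1 therefore lies 1 log2 unit above the mean of its batch, read depth is unknown, and neither absolute levels nor the markers of the cell line can be read. The table held 11579 transcripts. Only rows placed on chromosome 1 of GRCh38 are named: 50.7% of the protein-coding genes of chromosome 1 had a row against 2.39% of its other genes, while on chromosomes 2 to 22 the shares were 19.3% and 16.4%, so that names there do not appear to belong to their values. Chromosome 1 held 1131 rows, 1045 of them protein-coding, and those rows are the ones described. The level of the transfected EVI1 itself was not analysed here.

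Library labels bear on every result below. Among all rows, 1 separated the untreated samples carrying either EVI1 plasmid from the other untreated samples by more than 2 log2 units. Its gap was 4.25 and it is labelled CACNB3, on a chromosome whose names are not used. With H2O2 this row read -2.60, 4.79 and 3.73 in EVI1-AQA replicates 1 to 3, and -3.48, 4.36 and -2.17 in empty vector replicates 1 to 3. Both libraries of batch 1 were thus low, both of batch 2 were high, and only the pair of batch 3 lay as its labels would place it. In EVI1-WT with H2O2 the row read 4.91, -4.38 and 3.27. The libraries labelled EVI1-AQA replicate 1, empty vector replicate 2 and EVI1-WT replicate 2 therefore went against their labels in this row. They are kept under their labels, values are given for each batch, and results are also given without those 3 libraries. Without them EVI1-AQA and empty vector keep 2 samples each, and only batch 3 holds a whole pair. What happened to these libraries was not tested. Over the chromosome 1 rows, the correlation of EVI1-AQA replicates 2 and 3 was 0.507, whereas replicate 1 gave 0.0376 with replicate 2 and -0.0315 with replicate 3. The 3 empty vector correlations lay between 0.152 and 0.166. These are correlations across transcripts, which are not independent replicates and share the batch centring.

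Between EVI1-AQA and empty vector with H2O2, differences were small and no chromosome 1 transcript passed a false discovery threshold. At an unadjusted p below 0.05 in limma, with batch as a block, 41 of the 1131 rows (3.63%) were higher in EVI1-AQA and 38 (3.36%) were lower. Over all 11579 rows 348 (3.01%) were higher and 481 (4.15%) lower. Both directions together made up 6.98% of the chromosome 1 rows. After Benjamini-Hochberg adjustment over all rows 0 chromosome 1 rows passed, the lowest adjusted p being 0.296, and 1 row elsewhere passed with 0.00169. All differences named below are to be read against that background: they are the rows lowest by p, named with their values, and none is a call after adjustment. The 12 rows named in each direction were also required to move alike in all 3 batches. Their agreement between batches was therefore fixed by that choice. In the gene lists, members counted as higher or lower are those at an unadjusted p below 0.05. Without the 3 libraries, 51 chromosome 1 rows were higher and 51 lower, and 0 passed adjustment. The median difference was 0.0056 over chromosome 1 and 0.0018 over all rows. In 86 chromosome 1 rows (7.6%) all 3 EVI1-AQA values lay above all 3 empty vector values, and in 62 (5.48%) below.

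Among transcripts higher with EVI1-AQA, SDCCAG8 had the lowest p. This gene, at chr1:243256034-243500091 on the plus strand, encodes a protein of the centrosome and the base of the primary cilium. EVI1-AQA replicates 1 to 3 read 0.26, 0.28 and 0.00, and empty vector replicates 1 to 3 read -0.26, -0.59 and -0.64. All EVI1-AQA values lay above all empty vector values. The batch differences, whose shared sign the choice of rows fixed, were 0.51, 0.87 and 0.64. The fitted log2 difference was 0.68 ± 0.15 (SE, limma; adjusted p = 0.296), and 0.54 (adjusted p = 0.417) without the 3 libraries.

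A pair of transcripts in this group belongs to chromatin regulation. ARID4B (chr1:235131634-235328219, minus strand) encodes a subunit of the Sin3 histone deacetylase complex. It read 0.56, 0.68 and 0.37 with EVI1-AQA and -0.11, 0.19 and -0.03 with empty vector, without overlap. Its fitted difference was 0.52 ± 0.20 (SE; adjusted p = 0.600 in limma), and 0.65 without the 3 libraries (adjusted p = 0.486). KDM5B (chr1:202724495-202808487, minus strand) encodes a demethylase that removes methyl groups from lysine 4 of histone H3. It read 0.33, 0.24 and 0.05 against -0.30, 0.09 and -0.27, and the groups overlapped because the lowest EVI1-AQA sample lay below the highest empty vector sample. The fitted difference was 0.36 ± 0.14 (SE; adjusted p = 0.601), and 0.44 (adjusted p = 0.502) without the 3 libraries.

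EIF3I, a subunit of the translation initiation factor eIF3, read 0.11, 0.15 and 0.36 with EVI1-AQA and -0.11, -0.03 and -0.23 with empty vector, without overlap. It differed by 0.33 ± 0.13 and OPRD1, the delta opioid receptor, by 0.60 ± 0.24 (SE; adjusted p = 0.601 for both). OPRD1 showed nearly equal differences in the 3 batches, 0.60, 0.63 and 0.58, and both genes retained an unadjusted p below 0.05 without the 3 libraries, at 0.45 (adjusted p = 0.489) for EIF3I and 0.85 (adjusted p = 0.46) for OPRD1.

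The next 4 genes on this side had smaller differences without the 3 libraries. BLZF1, a golgin of the Golgi stack, differed by 0.65, CDK11B, a kinase that partners cyclin L, by 0.47, C1orf27 by 0.41 and MYCBP, which binds the MYC protein, by 0.40, with adjusted p from 0.481 to 0.589. All 4 were positive in every batch, which the choice of rows fixed. Without the 3 libraries they gave 0.40, 0.33, 0.27 and 0.27, all at an unadjusted p above 0.05 (adjusted p from 0.702 to 0.75). CDK11B has a near-identical neighbouring copy, CDK11A, so its reads may be shared. A further 2 of the 12 rows were RP11-570P14.1 (0.72, adjusted p = 0.372) and RP5-827C21.1 (0.86, adjusted p = 0.508). Both are annotated as processed pseudogenes, whose reads may belong to their parent genes. Without the 3 libraries these 2 rows gave 0.75 (adjusted p = 0.444) and 0.72 (adjusted p = 0.632, unadjusted p above 0.05). Of the 12, 7 retained an unadjusted p below 0.05 without the 3 libraries, and 2 did so whichever batch or doubted library was left out, namely SDCCAG8 and RP11-570P14.1. Leaving out batch 1 alone left 4 of 12. These fits reuse most of the samples by which the rows were chosen, so the choice favours retention.

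**Figure D1:**
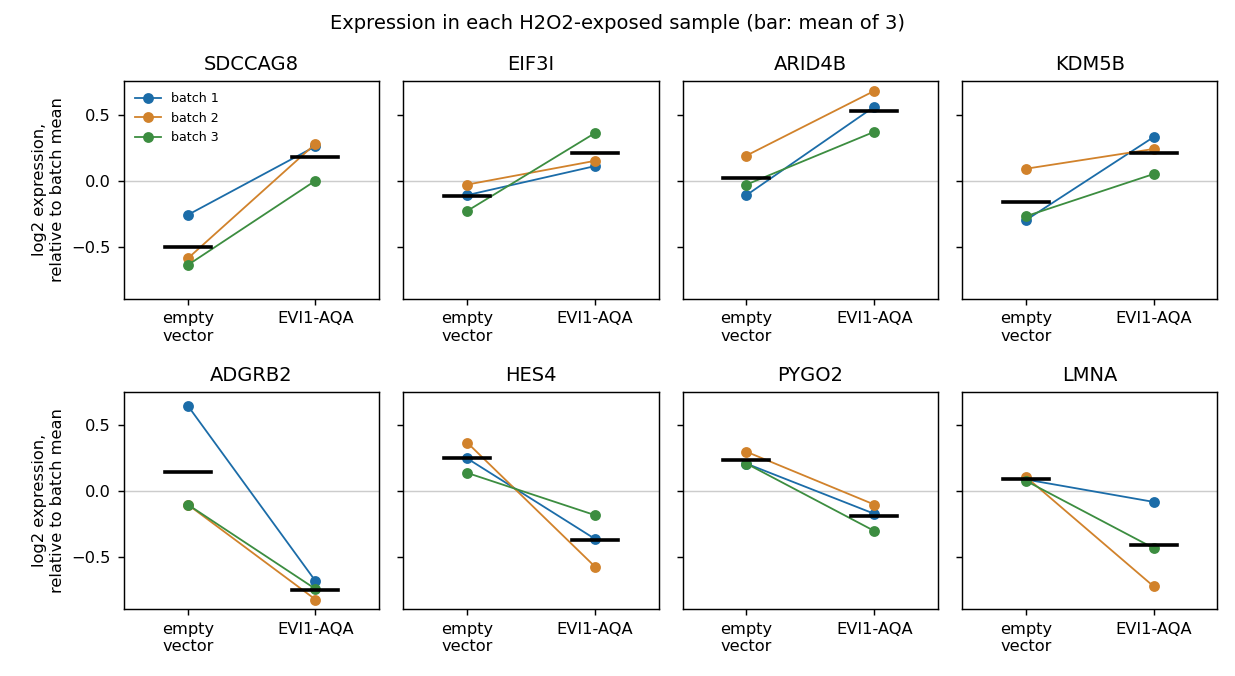
Log2 expression relative to the batch mean (y axis) in the 3 empty vector and 3 EVI1-AQA samples with H2O2, for 4 genes from the higher side (top) and 4 from the lower side (bottom). Points are samples, lines join samples of 1 batch, black bars are group means, and only KDM5B shows overlap between the groups among these 8 genes.

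On the lower side the lowest p belonged to ADGRB2 (chr1:31727117-31764893, minus strand), an adhesion G protein-coupled receptor known from brain. EVI1-AQA samples were close together at -0.68, -0.82 and -0.74, whereas empty vector samples read 0.65, -0.10 and -0.10. The groups did not overlap, and the differences of batches 1 to 3 were -1.33, -0.72 and -0.64. The fitted difference was -0.90 ± 0.21 (SE, limma; adjusted p = 0.296), and -1.10 (adjusted p = 0.241) without the 3 libraries.

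HES4 (chr1:998962-1000172, minus strand), a basic helix-loop-helix repressor and Notch target, read -0.36, -0.57 and -0.18 with EVI1-AQA and 0.25, 0.37 and 0.14 with empty vector. It did not overlap between groups, with a difference of -0.63 ± 0.16 (SE; adjusted p = 0.339) and -0.58 without the 3 libraries (adjusted p = 0.478). PYGO2 (chr1:154957026-154963853, minus strand), a co-activator of Wnt signaling that reads methylated histone H3, gave 3 nearly equal batch differences of -0.37, -0.40 and -0.51. Its values were -0.17, -0.10 and -0.30 against 0.21, 0.30 and 0.21. The fitted difference was -0.43 ± 0.13 (SE; adjusted p = 0.401), and -0.40 without the 3 libraries (adjusted p = 0.52).

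LMNA (chr1:156082573-156140081, plus strand) encodes lamins A and C of the nuclear lamina. Empty vector samples lay within 0.08 to 0.11, and EVI1-AQA samples read -0.08, -0.72 and -0.43, all lower, with the library labelled EVI1-AQA replicate 1 nearest to the controls. The difference was -0.51 ± 0.18 (SE; adjusted p = 0.534), and -0.74 (adjusted p = 0.329) without the 3 libraries. TRIM11, a ubiquitin ligase, differed by -0.49 ± 0.13 (adjusted p = 0.372) with values of -0.33, -0.27 and -0.31 against 0.22, 0.33 and 0.00, but gave -0.37 (adjusted p = 0.568, unadjusted p above 0.05) without the 3 libraries. ACAP3, which activates GTP hydrolysis by ARF6, differed by -0.60 ± 0.18 (adjusted p = 0.390) and by -0.91 (adjusted p = 0.241) without them.

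EVA1B (-0.81, adjusted p = 0.374), STPG1 (-0.47, adjusted p = 0.401) and TOR3A (-0.39, adjusted p = 0.534), a torsin ATPase of the endoplasmic reticulum, were lower. These genes retained an unadjusted p below 0.05 without the 3 libraries, at -0.65, -0.45 and -0.54. Among non-coding rows, the pseudogene EI24P2 differed by -1.0 (adjusted p = 0.372), mostly in batch 2, where its difference was -1.85 against -0.50 and -0.65. The lncRNAs RP11-345P4.9 (-1.23, adjusted p = 0.393) and RP11-54O7.17 (-0.91, adjusted p = 0.508) were carried by batch 1, with differences of -2.42 and -1.72 there, and gave -0.64 (adjusted p = 0.65, unadjusted p above 0.05) and -0.30 (adjusted p = 0.833, unadjusted p above 0.05) without the 3 libraries. RP11-54O7.17 lies just downstream of HES4 on the same strand. Of the 12 rows, 9 retained an unadjusted p below 0.05 without the 3 libraries, and 5 whichever batch or doubted library was left out: ADGRB2, EI24P2, HES4, PYGO2 and STPG1. Here too the choice of rows favours retention, since the fits reuse most of the same samples.

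**Figure D2:**
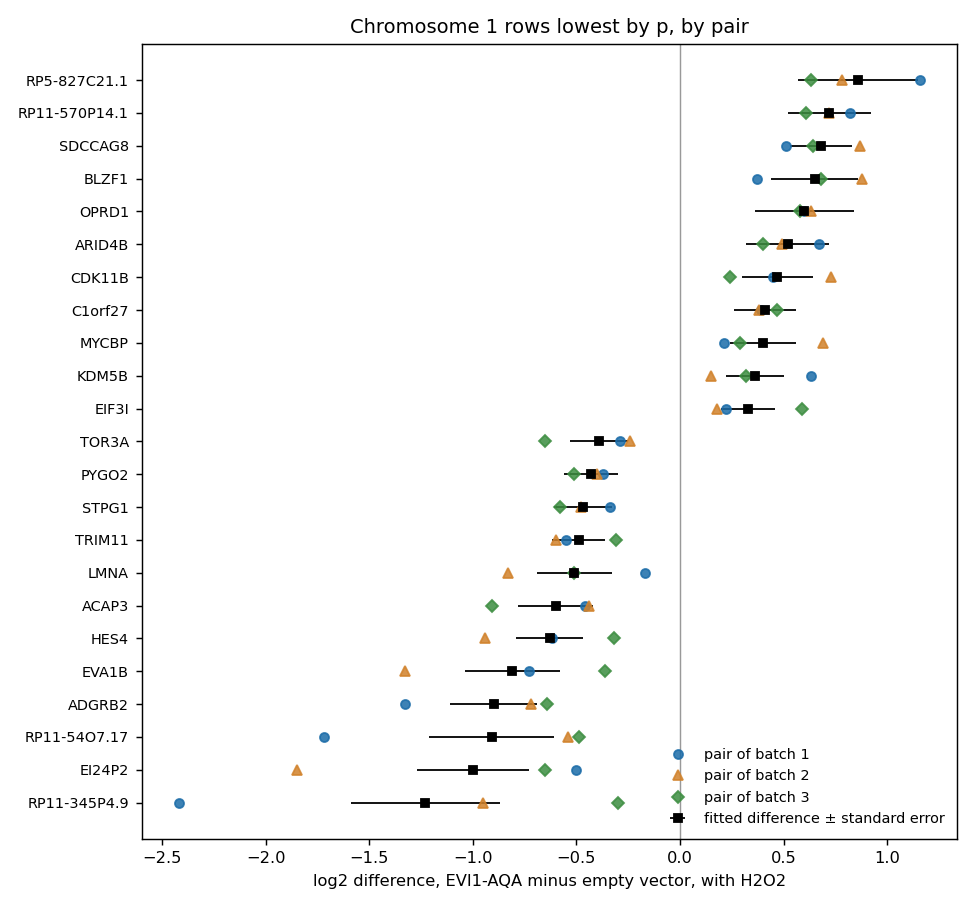
Log2 difference between EVI1-AQA and empty vector with H2O2 (x axis) for 11 of the 12 higher and the 12 lower chromosome 1 rows lowest by p. Coloured points are the differences within batches 1 to 3 and black squares the fitted differences with their standard errors. Every batch difference lies on the side of their row's fit, which the choice of rows fixed, and the widest scatter is in RP11-345P4.9, from -2.42 to -0.30.

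Among the 23 gene lists, that of genes handling peroxide and thiols had the most members past an unadjusted p of 0.05. Of 15 thiol antioxidant and glutathione genes with a row, 4 were higher with EVI1-AQA at unadjusted p below 0.05 and 0 were lower. Over chromosome 1, 3.63% of rows were higher and 3.36% lower at that threshold. The median difference of the list was 0.10 against 0.0056 over chromosome 1. That median was not particular to the list, since the medians of the 23 lists ran from -0.13 to 0.17. Translation initiation had 0.17, snoRNA hosts 0.12, mitosis and cell cycle 0.11, and tRNA synthetases and serine synthesis 0.10. Without the 3 libraries 2 of the 15 were higher and 0 lower, while the higher rows of chromosome 1 went from 41 to 51. The 4 were GCLM, the modifier subunit of the enzyme that starts glutathione synthesis, GSTM3, a glutathione transferase, PRDX1, a peroxiredoxin that reduces H2O2, and GLRX2, a mitochondrial glutaredoxin. In limma their adjusted p lay between 0.616 and 0.695. GCLM read 0.09, 0.12 and 0.06 with EVI1-AQA and -0.04, -0.45 and -0.43 with empty vector, without overlap, and differed by 0.39 ± 0.16 (SE; adjusted p = 0.616). PRDX1 read 0.01, 0.41 and 0.20 against -0.30, -0.13 and -0.38, also without overlap, and differed by 0.48 ± 0.22 (adjusted p = 0.691). GSTM3 read -0.10, 0.20 and 0.48 against -0.40, -0.15 and -0.08, and differed by 0.40 ± 0.16 (adjusted p = 0.621), with EVI1-AQA replicate 1 inside the range of the controls. GLRX2 differed by 0.36 ± 0.17 (adjusted p = 0.695), with 1 EVI1-AQA value below the highest control. Without the 3 libraries, GSTM3 gave 0.63 (adjusted p = 0.393) and PRDX1 0.68 (adjusted p = 0.53), whereas GCLM gave 0.29 (adjusted p = 0.743, unadjusted p above 0.05) and GLRX2 0.35 (adjusted p = 0.724, unadjusted p above 0.05).

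In untreated cells, which are separate samples of the same batches, EVI1-AQA minus empty vector was 0.49 (adjusted p = 0.393) for PRDX1 and 0.06 (adjusted p = 0.913) for GCLM. It was -0.17 (adjusted p = 0.716) for GSTM3 and -0.41 (adjusted p = 0.351) for GLRX2. The change between treatments passed an unadjusted p of 0.05 for GLRX2 and GSTM3 (adjusted p = 0.23 and 0.351) and missed it for GCLM and PRDX1 (adjusted p = 0.607 and 0.995). At that threshold PRDX1 was higher in both treatments, and GLRX2 lower untreated and higher with H2O2. The untreated PRDX1 difference came mostly from batch 3, with batch differences of 0.19, 0.16 and 1.12. Untreated empty vector replicates 1 to 3 read -0.03, 0.05 and -0.91 for PRDX1. The other 11 genes of the list ranged from -0.44 for GSTM4 (adjusted p = 0.834) to 0.47 for TXNIP (adjusted p = 0.889), the inhibitor of thioredoxin. TXNIP had the widest standard error of the list, 0.46, and a batch 1 difference of 1.24 against 0.18 and -0.02. With H2O2, EVI1-WT minus empty vector was 0.53 for GCLM, 0.45 for PRDX1, 0.18 for GSTM3 and -0.06 for GLRX2. EVI1-AQA minus EVI1-WT was -0.14, 0.03, 0.23 and 0.42 in that order (limma adjusted p = 0.885, 0.985, 0.78 and 0.507). Without the 3 libraries it was -0.21, 0.12, 0.44 and 0.40. Higher GCLM and PRDX1 were thus not particular to EVI1-AQA.

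**Figure D3:**
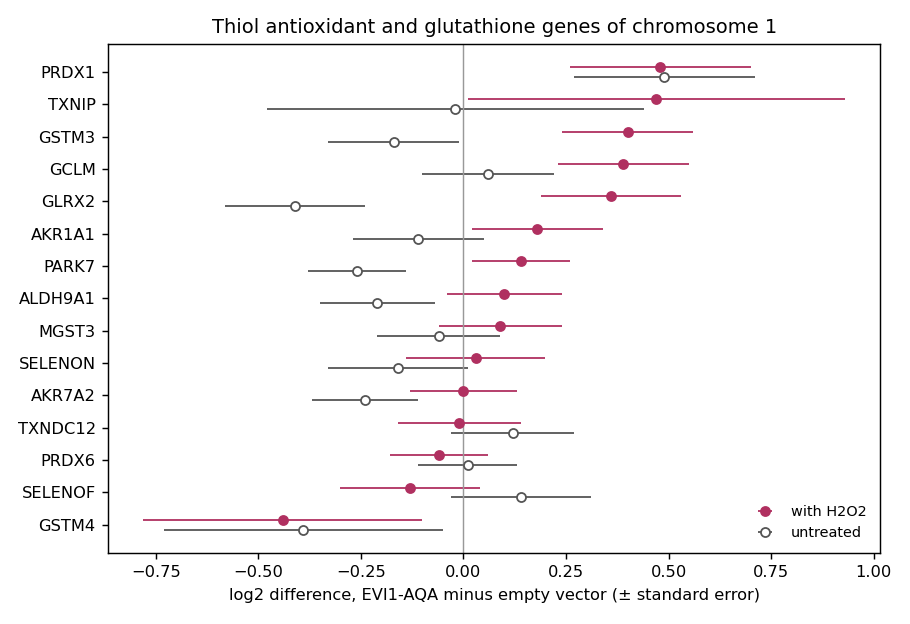
Log2 difference between EVI1-AQA and empty vector (x axis) for the 15 thiol antioxidant and glutathione genes with a chromosome 1 row, with H2O2 (filled) and untreated (open). Bars are standard errors of the fit. The differences with H2O2 run from -0.44 in GSTM4 to 0.48 in PRDX1, and the open and filled points of GLRX2 lie on opposite sides of 0.

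Promoters of these genes were read for the cores of the sites that EVI1 recognises. The 3 that held a match, among those of the 12 rows in each direction and the 4 thiol genes, are shown because EVI1 acts through DNA binding. Sequences are RefSeq, build GRCh38.p14, from 250 bases before the RefSeq gene start to 50 after it. The motifs were AGATAA, core of the site for the amino-terminal fingers, and GATGAG, core of the site for the carboxy-terminal fingers, each sought on both strands. No match of one overlapped a match of the other. Of 12 higher rows 9 had a promoter entry and 0 matched, and of 12 lower rows 8 had one and 1 matched, STPG1. Of the 4 thiol genes 3 had an entry, of which 1 held GATGAG, GCLM, and 1 held AGATAA, GSTM3. For genes with several entries the first was taken, and of the 3 entries of GLRX2 another held AGATAA. Among all 35116 promoters 10.3% held AGATAA and 12% GATGAG, shares that are for each motif alone. The 3 promoters below are at chr1:24414995-24415294 (STPG1, minus strand), chr1:93909381-93909680 (GCLM, minus strand) and chr1:109740989-109741288 (GSTM3, minus strand), read 5′ to 3′ along the gene. Capitals mark the match, GATGAG on the opposite strand in STPG1, GATGAG in GCLM and AGATAA in GSTM3.
STPG1: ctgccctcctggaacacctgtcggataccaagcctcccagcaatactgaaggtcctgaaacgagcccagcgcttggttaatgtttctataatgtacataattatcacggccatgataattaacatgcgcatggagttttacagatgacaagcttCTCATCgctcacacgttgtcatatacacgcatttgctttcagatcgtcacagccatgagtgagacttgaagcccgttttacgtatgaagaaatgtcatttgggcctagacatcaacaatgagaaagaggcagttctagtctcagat
GCLM: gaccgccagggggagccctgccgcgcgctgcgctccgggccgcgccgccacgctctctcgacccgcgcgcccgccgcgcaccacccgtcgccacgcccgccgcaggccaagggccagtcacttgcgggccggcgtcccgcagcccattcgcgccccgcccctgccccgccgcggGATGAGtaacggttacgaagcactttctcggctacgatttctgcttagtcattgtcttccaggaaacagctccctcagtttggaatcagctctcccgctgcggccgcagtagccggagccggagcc
GSTM3: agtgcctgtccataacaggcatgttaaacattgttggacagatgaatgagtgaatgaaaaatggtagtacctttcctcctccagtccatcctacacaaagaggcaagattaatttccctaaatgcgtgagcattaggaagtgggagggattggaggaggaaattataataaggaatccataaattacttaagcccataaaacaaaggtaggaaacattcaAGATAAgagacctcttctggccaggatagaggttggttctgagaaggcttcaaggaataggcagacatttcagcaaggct
The matches start 96, 76 and 30 bases before the RefSeq starts of these entries. The GENCODE starts lie 1890 bases further upstream for STPG1, whose window is therefore inside the gene as GENCODE annotates it, 26 bases for GCLM and 0 for GSTM3. A match is a description of the letters and not a bound site.

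Co-repressors are the class of protein that EVI1 recruits. Of 12 co-repressor and histone deacetylase genes with a row, 1 was higher, ARID4B, and 0 were lower, with a median of -0.03, where 6.98% of all chromosome 1 rows passed in either direction. HDAC1, a histone deacetylase, differed by -0.09 (adjusted p = 0.932) and RBBP4, a histone chaperone of the same complexes, by 0.10 (adjusted p = 0.949), which moved to 0.00 and 0.33 without the 3 libraries. SKI, a co-repressor of SMAD proteins, read -0.27 (adjusted p = 0.782) and -0.56 (adjusted p = 0.41) without them. Of 13 other chromatin regulators, KDM5B was higher and PHC2, a Polycomb subunit, lower, by -0.27 ± 0.12 (adjusted p = 0.686). PHC2 read -0.12, -0.10 and -0.15 against 0.14, 0.18 and 0.10, and without the 3 libraries its difference was -0.26 (adjusted p = 0.689, unadjusted p above 0.05).

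DNA damage and stress genes were compared because H2O2 damages DNA. Both groups received it, so the differences here do not measure the response to H2O2 itself. Counts here stand against 6.98% of all chromosome 1 rows that passed an unadjusted p of 0.05 in either direction. Of 14 genes of the p53 pathway and 14 of the immediate early and stress response, 0 passed an unadjusted p of 0.05 in either direction, with medians of 0.02 and -0.13, and of -0.13 and -0.26 without the 3 libraries. ATF3, a stress-induced transcription factor, differed by -0.39 ± 0.34 (adjusted p = 0.857) and JUN by -0.39 ± 0.34 (adjusted p = 0.862), both mostly in batch 1, where empty vector read 0.80 and 0.60. MCL1, an anti-apoptotic protein, differed by -0.23 ± 0.13 (adjusted p = 0.768). Of 16 replication and repair genes, 1 was lower, MUTYH, a glycosylase that removes adenine paired with oxidised guanine. MUTYH read -0.10, -0.43 and -0.16 against 0.83, 0.48 and -0.05, without overlap, and differed by -0.65 ± 0.27 (adjusted p = 0.627), or -0.71 (adjusted p = 0.618, unadjusted p above 0.05) without the 3 libraries. Of 25 mitosis and cell cycle genes, 1 was lower, RCC2, a regulator of chromosome condensation and of Rac1, by -0.46 ± 0.18 (adjusted p = 0.578). RCC2 gave -0.66 (adjusted p = 0.411) without the 3 libraries. CENPF, a kinetochore protein, differed by 0.51 ± 0.26 (adjusted p = 0.722) and CENPL by 0.27 (adjusted p = 0.787), or 0.47 without the 3 libraries (adjusted p = 0.559), at an unadjusted p below 0.05.

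RNA processing, translation and metabolism gave scattered members, where 6.98% of all chromosome 1 rows passed in either direction. Of 24 splicing factor genes, PRPF38B was higher by 0.36 (adjusted p = 0.629) and SNRNP40, a protein of the U5 snRNP, lower by -0.37 (adjusted p = 0.588), while SFPQ read 0.30 (adjusted p = 0.782) and RBM15 0.36 (adjusted p = 0.714). In translation initiation, EIF3I was higher and PABPC4, a cytoplasmic poly(A)-binding protein, lower by -0.25 (adjusted p = 0.695), out of 6. Among 8 tRNA synthetase and serine synthesis genes, TARS2, the mitochondrial threonyl-tRNA synthetase, was higher by 0.34 (adjusted p = 0.676) and 0 were lower. Among 7 cholesterol genes, FDPS, farnesyl diphosphate synthase, was higher by 0.69 ± 0.31 (adjusted p = 0.667), with batch differences of 0.05, 0.70 and 1.33. FDPS moved to 1.37 (adjusted p = 0.241) without the 3 libraries. In MAPK signaling 1 of 13 was higher, PPP1R12B, a myosin phosphatase subunit, by 0.50 (adjusted p = 0.621), and MAPKAPK2 read -0.26 (adjusted p = 0.722). The 6.98% holds with all libraries, whereas without the 3 libraries 51 of the 1131 chromosome 1 rows were higher and 51 lower. In that setting the splicing list had 0 higher and 3 lower members, SNRNP40 (-0.48), HNRNPU (-0.48) and CLK2 (-0.49). With all libraries HNRNPU read -0.07 and CLK2 -0.06, and both were named after their values were seen. Without the 3 libraries translation initiation had 2 lower members, PABPC4 (-0.39) and EIF2D (-0.52), and MAPKAPK2 (-0.37) passed in MAPK signaling. In the same setting PRPF38B gave 0.44 and TARS2 0.37, both at an unadjusted p above 0.05. In death receptor signaling 1 of 7 was lower, LMNA, which caspases cleave during apoptosis.

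In the other lists 0 members passed an unadjusted p of 0.05 in either direction in limma, where 6.98% of all chromosome 1 rows passed. They were 14 chaperones (median -0.03), 5 cytosolic ribosomal proteins (0.02), 10 mitochondrial ribosomal proteins (0.06), 12 ribosome biogenesis genes (0.08), 5 proteasome subunits (0.04), 9 respiratory chain genes (0.03), 4 RNA helicases (0.05), 2 fucose genes (-0.02), 3 snoRNA hosts (0.12) and 6 TGF-beta and SMAD genes (-0.03). MRPL20 read 0.27 (adjusted p = 0.699), MRPS15 0.37 (adjusted p = 0.732) and GNL2, a nucleolar GTPase, 0.37 (adjusted p = 0.714). When the 3 libraries were left out, 4 of these lists each had 1 lower member at unadjusted p below 0.05, named here for that reason: DNAJB4 among the chaperones (-0.51), MRPL24 among the mitochondrial ribosomal proteins (-0.55), NOL9 in ribosome biogenesis (-0.45) and SKI (-0.56), with adjusted p from 0.41 to 0.565. With all libraries they read -0.10, -0.29, -0.05 and -0.27. Without the 3 libraries 51 of all 1131 chromosome 1 rows were higher and 51 lower at that threshold. The medians of the 23 lists lay between -0.13 and 0.17.

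The second question was whether EVI1-AQA acted alike with and without H2O2, tested as the difference of the 2 effects. Over chromosome 1, 55 rows (4.86%) had a higher effect with H2O2 and 72 (6.37%) a lower one at unadjusted p below 0.05, against 559 (4.83%) and 756 (6.53%) over all rows. After Benjamini-Hochberg adjustment in limma 0 passed, the lowest adjusted p being 0.0999 over all rows and 0.119 on chromosome 1. Untreated cells had 76 rows higher and 71 lower with EVI1-AQA on chromosome 1, compared with 41 and 38 with H2O2. All 3 doubted libraries are H2O2 samples, and without them the counts were 73 and 77 untreated and 51 and 51 with H2O2. The difference between those counts was not tested. Across the 1131 transcripts the effects with H2O2 and untreated had a Pearson correlation of -0.0831, and of -0.00136 without the 3 libraries. Within batches 1 to 3 it was 0.106, -0.114 and 0.0882. Transcripts are not independent replicates, and the 4 samples behind each batch value share its centring.

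ADGRB2 had the lowest p of this test, with 0.47 (adjusted p = 0.383) in untreated cells and -0.90 with H2O2, a change of -1.36 ± 0.29 (SE; adjusted p = 0.119). SNRNP40 went from 0.54 (adjusted p = 0.215) to -0.37, a change of -0.90 (adjusted p = 0.119). ARHGEF16 went from 1.00 (adjusted p = 0.208) to -0.63, a change of -1.63 (adjusted p = 0.119). Its difference with H2O2 was largest in batch 2 and was -0.19 (adjusted p = 0.871, unadjusted p above 0.05) without the 3 libraries. RRAGC, a Rag GTPase that couples amino acids to mTORC1, was 0.89 higher untreated (adjusted p = 0.108) and read -0.15 with H2O2 (adjusted p = 0.898), a change of -1.04 (adjusted p = 0.119). In the opposite direction, C1orf50 went from -0.69 (adjusted p = 0.23) to 0.39 (adjusted p = 0.714), and the pseudogenes RP11-570P14.1, CTD-2090I13.2 and RP11-318C24.1 from -0.51, -0.70 and -0.44 to 0.72, 0.50 and 0.36. Without the 3 libraries the 8 changes kept their direction, from -1.57 in ADGRB2 to 1.27 in RP11-570P14.1, and each kept an unadjusted p below 0.05.

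**Figure D4:**
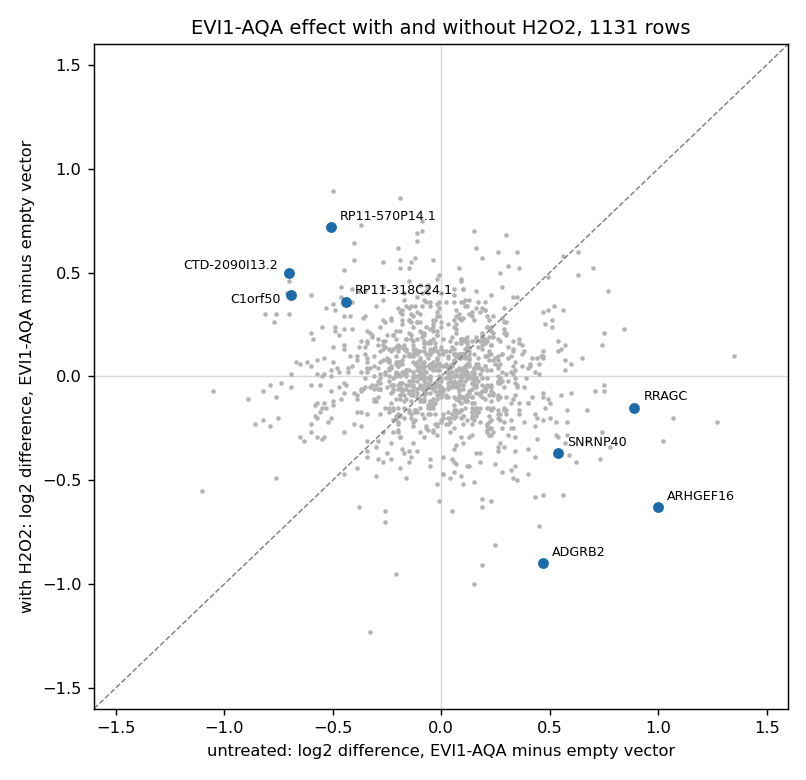
Log2 difference between EVI1-AQA and empty vector in untreated cells (x axis) and with H2O2 (y axis) for the 1131 chromosome 1 rows (grey points). The dashed line marks equal effects, and blue points are the 4 rows per direction lowest by p for a change between treatments, from ARHGEF16 at 1.00 and -0.63 to RP11-570P14.1 at -0.51 and 0.72.

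Against EVI1-WT with H2O2, EVI1-AQA was higher in 42 chromosome 1 rows (3.71%) and lower in 50 (4.42%), compared with 410 (3.54%) and 554 (4.78%) over all rows. After adjustment 0 chromosome 1 rows and 1 row elsewhere passed in limma, the lowest adjusted p on chromosome 1 being 0.205. That value belonged to CDK11B, at 0.76 ± 0.17 (SE; adjusted p = 0.205). The pseudogene RPL5P4 (1.14), KCNC4, a potassium channel (0.51), and the pseudogene SEC63P1 (0.60) followed on the higher side. CCDC23 (-0.84), TRIM11 (-0.49) and PINK1-AS (-0.64) were among the lowest by p on the other side, with adjusted p from 0.275 to 0.302. PINK1-AS overlaps PINK1 on the other strand, and whether reads were counted by strand is not given in the sources used here. The same EVI1-AQA samples enter this comparison and the one with empty vector, so the values stand side by side only. ADGRB2 was -0.71 against EVI1-WT and -0.90 against empty vector, LMNA -0.60 and -0.51, PYGO2 -0.40 and -0.43, and ARID4B 0.52 and 0.52. For BLZF1 the values were -0.06 and 0.65, and for OPRD1 -0.37 and 0.60. Against empty vector, EVI1-AQA and EVI1-WT gave -0.30 and 0.55 for CCDC23, -0.13 and 0.51 for PINK1-AS, and -0.19 and -0.69 for KCNC4. They gave -0.49 and 0.01 for TRIM11, 0.47 and -0.29 for CDK11B, 0.70 and -0.44 for RPL5P4, and 0.29 and -0.31 for SEC63P1. The values against EVI1-WT without the 3 libraries were -0.94 for LMNA, -0.29 for BLZF1, -0.07 for OPRD1, -0.83 for ADGRB2, -0.41 for PYGO2 and 0.73 for ARID4B. CDK11B then gave 0.73, RPL5P4 1.5, KCNC4 0.51, SEC63P1 0.87, CCDC23 -0.66, TRIM11 -0.42 and PINK1-AS -0.84, each still at an unadjusted p below 0.05, and 47 chromosome 1 rows were higher and 51 lower with 0 after adjustment (lowest adjusted p 0.0857). EVI1-WT against empty vector, which shares the controls, gave 0.70 for BLZF1 and 0.98 for OPRD1. It had 21 chromosome 1 rows higher and 19 lower, or 37 and 34 without the 3 libraries. After adjustment 0 chromosome 1 rows passed in either setting, BLZF1 and OPRD1 included.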

How the data were processed

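Total RNA from 24 HEK293 samples, in 8 groups of plasmid and treatment with 3 samples each, was sequenced from the 3′ end. The authors filtered on expression and deposited log2 values, centred to a mean of 0 for each transcript within each batch of 8 samples (largest departure 4.5e-06). The labels name GRCh38, the study Ensembl release 90, and the aligner is not given in the sources used here. Of the 11579 identifiers, 94.1% matched GENCODE release 44, which gave the positions. The table had 0 sample columns without a label.

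One linear model per transcript, with 8 group means and batch as a block, was fitted to all 24 samples in limma 3.58.1 (R 4.3.3), and moderated p-values were adjusted by Benjamini-Hochberg over all 11579 rows. The replicate number is the labelled batch, which pairs the samples. The code was tested on simulated data. Contrasts were EVI1-AQA minus empty vector with H2O2, the same contrast minus its untreated counterpart, and EVI1-AQA minus EVI1-WT with H2O2. No pseudocount, filter or count model applied. Named were the 12 chromosome 1 rows per direction lowest by p that moved alike in all 3 pairs, up to 4 members per gene list lowest by p, and 4 rows per direction for each other contrast. A few of these are not reported here. HDAC1 and RBBP4 were added for their function, and the further values of TXNIP and GSTM4 for being at the ends of their list. The samples, the 23 gene lists and the rows were chosen with earlier results of these data known. Alternatives were no block, the compared samples alone, no moderation, median centring, quantile normalization, leaving out each batch and each doubted library, and leaving out the 3 doubted libraries.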

Additional observations from a re-analysis of the deposited data

Results flagged for a closer look

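The effect of EVI1-AQA against empty vector differed between H2O2 and untreated cells at unadjusted p below 0.01 for 39 of the 1131 chromosome 1 transcripts, by the test of the difference itself in limma, while 0 passed after Benjamini-Hochberg adjustment (lowest adjusted p on chromosome 1, 0.119). The 4 lowest by p in each direction are given. The effect with H2O2 minus the untreated effect was 1.23 for RP11-570P14.1, 1.08 for C1orf50, 0.80 for RP11-318C24.1 and 1.20 for CTD-2090I13.2. It was -1.36 for ADGRB2, -0.90 for SNRNP40, -1.63 for ARHGEF16 and -1.04 for RRAGC. The values with H2O2 rest in part on libraries that went against their labels in the row used to check them.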

How the results depend on the processing

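Over all 11579 rows, 348 were higher and 481 lower in EVI1-AQA with H2O2, and 1 passed adjustment. Without the replicate block, 464 were higher and 595 lower, and 2 passed adjustment. With the 6 samples of the comparison alone, 542 were higher, 601 lower and 0 passed adjustment, and with no moderation 435 were higher, 477 lower and 0 passed. Leaving out 1 batch or 1 doubted library gave 258 to 441 higher, 251 to 615 lower and 0 to 2 after adjustment, the lowest count of lower rows coming without batch 2. For the change between treatments, 1315 rows became 821 to 1515, lowest without batch 2, and for EVI1-AQA against EVI1-WT, 964 became 509 to 1115, lowest without batch 3. No transcript named at unadjusted p below 0.05 turned its direction under any of these. HDAC1, which never passed, lay between -0.14 and 0.01 when 1 batch or library was left out and at 0.00 without the 3 libraries, and RBBP4 between -0.09 and 0.34. The cause of these changes was not tested. With 3 samples per group, unknown depth and centred values, small differences cannot be told from the spread between samples, and labels on the other chromosomes were not used.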
